A study of Mus musculus with 2 samples.

Results

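The genes described here encode calcium-binding S100 proteins other than S100a8 and S100a9, and annexins to which S100 proteins bind. They are 10 genes, S100a4, S100a6, S100a10, S100a11, S100a13, Anxa1, Anxa2, Anxa3, Anxa5 and Anxa11, out of 23235 in the deposited table. They were chosen by symbol, with their levels in both libraries already known, so their differences are a description. The data compare primary leukaemic cells of 2 mouse acute promyelocytic leukaemias, APL#2 and APL#1. This is a disease of arrested promyelocytes, caused by the fusion protein PML-RAR. The series calls them clones of unequal LIC (leukaemia-initiating cell) frequency and does not say which is higher. Recipients were given 200000 cells of APL#2 or 2000000 cells of APL#1, so dose and leukaemia go together. What both share, per the labels, is a source named mCG-PML-RAR transgenic mice (mCG is not spelled out) and a genotype named PML-RAR KI APL. They also share the strain C57BL/6-Ly5.2, an age of 10 weeks and a treatment label of Untreated. The titles of both samples nevertheless end in VEH, which the labels do not explain, so whether a vehicle was given is not known. The CD45.1+ recipients were not irradiated, and CD45.2+ cells were purified from their spleens on immunomagnetic columns. Each leukaemia is 1 clone and 1 library, so no replicate checks the differences, no test was run, and leukaemia, recipient, cell dose and library cannot be told apart.

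S100 proteins are small proteins with a pair of EF-hand calcium-binding loops that form dimers and dock onto partner proteins when calcium is bound. S100a10 is the exception in the family, since its loops no longer bind calcium and it stays in the active shape. Annexins bind membranes rich in acidic phospholipids when calcium rises, and several of them carry an N-terminal tail to which an S100 dimer attaches, which joins membranes together. In human acute promyelocytic leukaemia the complex of annexin A2 with S100a10 is known as a cell surface receptor for plasminogen and its activator, and has been linked to the bleeding of this disease.

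Levels are in FPKM, fragments scaled by transcript length and library total, and a gene is called measured when its mean over both libraries was at least 1 FPKM. All 10 genes met this, as did 4100 genes of the table, but S100a4 met it through its level in APL#2. A difference is log2((FPKM in APL#2 + 1)/(FPKM in APL#1 + 1)), which understates the difference of low genes, and folds are plain ratios of FPKM. Of the 10 genes, 3 were at least 2-fold higher in APL#2 by this difference (S100a4, S100a6 and Anxa1), beside 2.10% of all measured genes, and 0 were at least 2-fold lower, beside 2.44%. Since the genes were chosen with these values known, nothing is read from these shares. The median difference over the 10 genes was -0.03, beside -0.17 over all measured genes, whose interquartile range ran from -0.37 to 0.04. S100a11, Anxa2, Anxa3 and Anxa5 lay within that range, S100a13 (-0.52) below it, and Anxa11 (0.09) above it with S100a4, S100a6, S100a10 and Anxa1. The sign of the median over the 10 genes changes with the scaling: it was 0.16 after APL#2 was rescaled so that the median ratio over measured genes was 1.

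**Figure D1:**
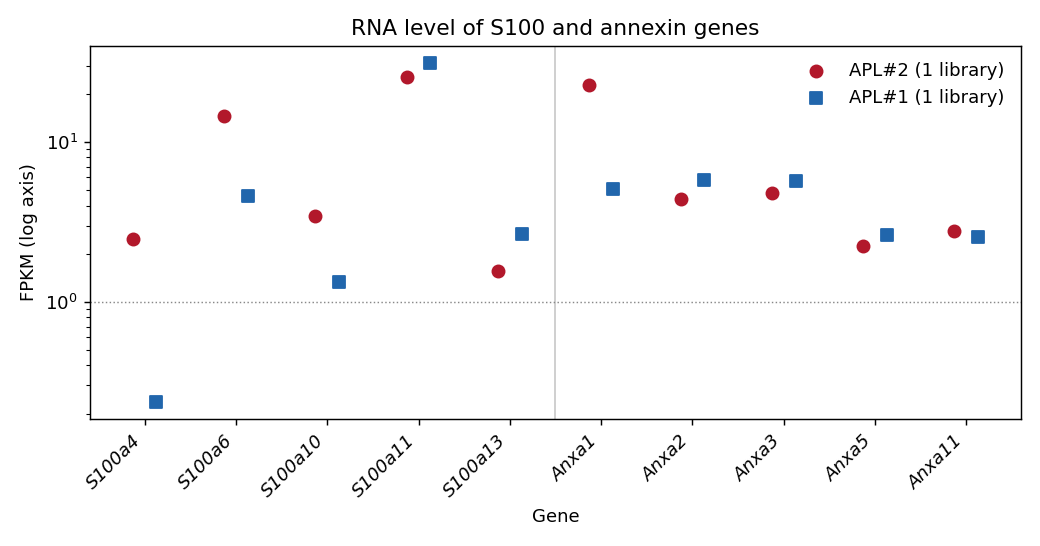
FPKM of each gene (log axis) in the APL#2 library (red circles) and the APL#1 library (blue squares), with S100 genes on the left and annexin genes on the right; the dotted line marks 1 FPKM. S100a4, S100a6, S100a10 and Anxa1 stand apart between the libraries, and S100a4 in APL#1, at 0.237 FPKM, is the 1 value under the line.

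Depth sets the counting error of each of these values, which is only a part of their uncertainty. From genes with 1 transcript and very low values, the scaling totals were estimated at about 61700000 fragments in APL#2 and 57000000 in APL#1. Only about 1830000 fragments in APL#2 and 1940000 in APL#1 lay in the 14589 genes with a known length by the same estimate, and the cause of this gap was not tested. Transcript lengths were shortened by 200 bases in this estimate, on which the values of the 10 genes rested on between 45 and 2062 fragments in APL#2 and between 4 and 554 in APL#1. The 95% intervals given below for ratios come from these estimated fragments by the exact binomial method (Clopper-Pearson); they cover counting error only and not the spread between animals.

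Among the 5 S100 genes described, S100a6 was the one that combined a high level with a wide difference. S100a6 encodes calcyclin, which binds the ubiquitin ligase adaptor encoded by Cacybp and, among annexins, annexin A11. It stood at 14.6 FPKM in APL#2 and 4.58 FPKM in APL#1, about 479 and 139 fragments. The ratio was 3.19, with an interval of 2.63 to 3.88. In APL#2 it was above 93.4% of the measured genes and in APL#1 above 77.6%, so it was well expressed in both leukaemias and among the more abundant genes in APL#2.

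S100a4, known as metastasin, binds the heavy chain of non-muscle myosin IIA, the product of Myh9. Its level was 2.46 FPKM in APL#2 and 0.237 FPKM in APL#1. The ratio of 10.4 was the widest of the 10, but it rests on about 45 fragments in APL#2 and 4 in APL#1, and its interval runs from 3.79 to 39.8. The partner gene Myh9 hardly differed, at 6.21 FPKM in APL#2 and 6.53 FPKM in APL#1. In bulk RNA, fewer cells that express a gene and less RNA per cell cannot be told apart, which applies to S100a4 and to each gene here.

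S100a10 was higher in APL#2 as well, while its partner Anxa2 was not. S100a10 stood at 3.44 FPKM in APL#2 and 1.33 FPKM in APL#1, a ratio of 2.58 with an interval of 1.75 to 3.86, from about 103 and 37 fragments. Its difference of 0.93 fell short of the 2-fold limit on the log2(FPKM + 1) scale and passed it (1.14) when APL#2 was divided by the median ratio. Anxa2 stood at 4.37 FPKM in APL#2 and 5.81 FPKM in APL#1, a ratio of 0.751 with an interval of 0.649 to 0.871, beside a median ratio of 0.835 over all measured genes. There were thus 0.788 FPKM of S100a10 per FPKM of Anxa2 in APL#2 and 0.229 in APL#1. These are RNA levels, and the amount of the complex at the cell surface was not measured.

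S100a11 and S100a13 were not higher in APL#2. S100a11, which binds annexin A1, was the most abundant of the 10 genes in both leukaemias, with 25.5 FPKM in APL#2 and 31.2 FPKM in APL#1. Its ratio of 0.818 lay beside the all-gene median, at 0.980 when divided by it. S100a13, which takes part in the release from cells of Fgf1 and interleukin 1 alpha, proteins that lack a signal peptide, stood at 1.55 FPKM in APL#2 and 2.67 FPKM in APL#1. Its ratio of 0.581 was the lowest of the 10, with an interval of 0.398 to 0.841 that rests on about 49 and 78 fragments and just reaches the all-gene median. Both cargo genes, Fgf1 and Il1a, were listed at 0 in both libraries.

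The make-up of S100 RNA differed accordingly. The 5 S100 genes together summed to 47.6 FPKM in APL#2 and 40.0 FPKM in APL#1, a ratio of 1.19. S100a11 made up 53.6% of that sum in APL#2 and 78.0% in APL#1, and S100a6 30.7% in APL#2 and 11.4% in APL#1. The neutrophil genes S100a8 and S100a9 went the other way, with a summed 253.5 FPKM in APL#2 and 687.8 FPKM in APL#1. With them and S100a1 counted in, the 5 genes held 15.7% of the S100 RNA in APL#2 and 5.47% in APL#1.

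Anxa1 was the 1 of the 5 annexin genes past the 2-fold limit. It encodes annexin A1, or lipocortin, a glucocorticoid-induced protein of myeloid cells that limits inflammation through formyl peptide receptors. It stood at 22.7 FPKM in APL#2 and 5.08 FPKM in APL#1, about 2062 and 427 fragments, a ratio of 4.47 with an interval of 4.02 to 4.97. Its share of the RNA of the 5 annexin genes was 61.6% in APL#2 and 23.3% in APL#1. S100a11, whose product binds its tail, was thus at 1.13 FPKM per FPKM of Anxa1 in APL#2 and 6.14 in APL#1. The receptor genes were almost silent in these cells: Fpr1 and Fpr3 were listed at 0 in both libraries, and Fpr2 stood at 0.0444 FPKM in APL#2 and 0.0480 FPKM in APL#1.

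The other annexins differed less. Anxa3, abundant in neutrophils, stood at 4.76 FPKM in APL#2 and 5.74 FPKM in APL#1, a ratio of 0.830. Anxa5, whose protein binds phosphatidylserine and is used to stain dying cells, stood at 2.25 FPKM in APL#2 and 2.60 FPKM in APL#1, a ratio of 0.863 with an interval of 0.713 to 1.05. Anxa11, the partner of calcyclin, stood at 2.77 FPKM in APL#2 and 2.55 FPKM in APL#1, a ratio of 1.09 with an interval of 0.931 to 1.26. Divided by the all-gene median, the ratios of Anxa2, Anxa3, Anxa5 and Anxa11 were 0.900, 0.994, 1.03 and 1.30, so the direction of Anxa5 depends on the scaling. S100a6 stood at 5.28 FPKM per FPKM of Anxa11 in APL#2 and 1.80 in APL#1.

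**Figure D2:**
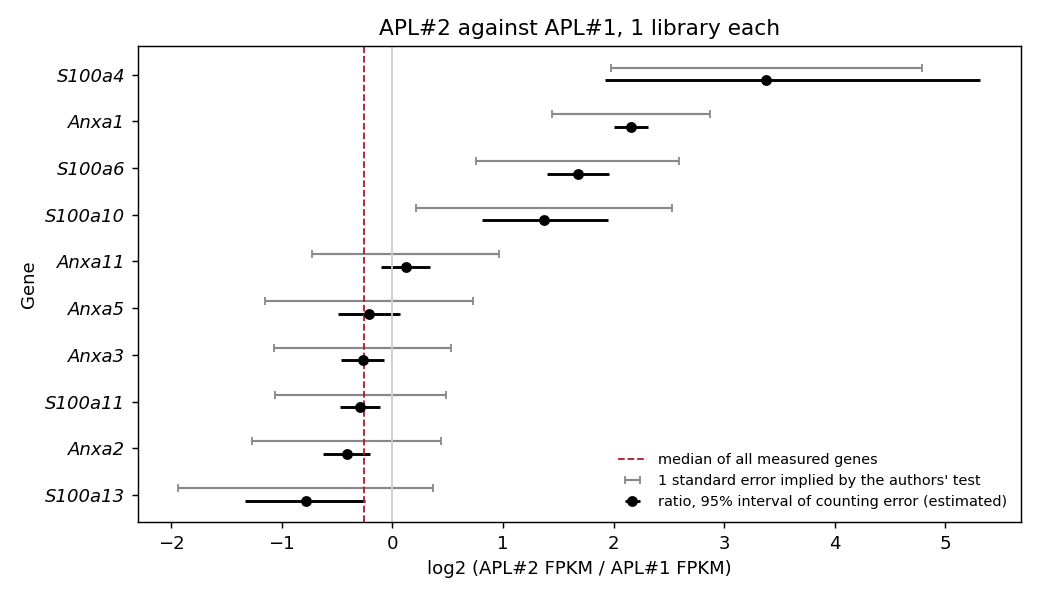
Log2 of the plain ratio of APL#2 over APL#1 for each gene; black points with bars are the ratio with its estimated 95% interval of counting error, grey bars span 1 standard error implied by the authors' test on either side, and the dashed red line is the median of all measured genes. S100a4, Anxa1, S100a6, S100a10 and Anxa11 lie to the right of the line beyond their counting error. Of these, Anxa11 lies nearest to the line, and its black bar (0.931 to 1.26 as a ratio) also spans equal levels. The grey bars are wider than the black ones except for S100a4.

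In the authors' deposited table, the smallest p-value among the 10 genes was 0.00246, for Anxa1, with a q-value of 0.628. The next in the authors' deposited table were S100a4 (p-value 0.0162) and S100a6 (p-value 0.0677), and the q-value of the 9 genes other than Anxa1 rounded to 1.00. None of the 10 was among the 11 genes, 0.0473% of the table, with q of at most 0.05 in the authors' deposited table, which compares 2 libraries and not replicated leukaemias. The standard error implied by the test statistic in the authors' deposited table was 0.71 (log2) for Anxa1, 0.92 for S100a6, 1.16 for S100a10 and 1.41 for S100a4. Each error is the size of the log2 ratio computed from the same table (2.16, 1.67, 1.37 and 3.38, in that order) divided by the authors' statistic. Setting the ratios beside these errors therefore only repeats the order of the p-values.

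Promoter sequences are shown for the 3 genes past the 2-fold limit and for Anxa2 and S100a11, an annexin and an S100 gene that did not pass it. They are RefSeq promoters of build GRCm38.p6, from 250 bases before to 50 bases after the gene's start, 5′ to 3′. Of the 10 genes, 8 were in that table, and S100a10 and Anxa3 were not used here. Capitals mark matches on either strand to the TATA box TATAAA, the AP-1 motif TGANTCA, the GC box GGGCGG, the E-box CACGTG, and GAGGAA, the core of sites of the ETS family that includes PU.1. These 5 motifs were chosen after the sequences and the levels had been seen, so which genes hold a match is a description only.
S100a6 (chr3:90612644-90612943, plus strand): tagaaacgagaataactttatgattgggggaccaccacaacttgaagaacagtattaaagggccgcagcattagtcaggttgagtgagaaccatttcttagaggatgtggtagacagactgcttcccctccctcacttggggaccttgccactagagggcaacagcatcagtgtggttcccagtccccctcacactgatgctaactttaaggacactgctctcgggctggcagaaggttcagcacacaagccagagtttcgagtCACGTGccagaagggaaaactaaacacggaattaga
S100a4 (chr3:90603520-90603819, plus strand): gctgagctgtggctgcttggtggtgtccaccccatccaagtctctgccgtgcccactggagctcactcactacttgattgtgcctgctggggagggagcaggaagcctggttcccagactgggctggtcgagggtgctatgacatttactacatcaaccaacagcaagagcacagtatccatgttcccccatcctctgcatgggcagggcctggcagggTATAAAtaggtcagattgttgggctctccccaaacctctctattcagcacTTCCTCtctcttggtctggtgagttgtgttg
Anxa1 (chr19:20390622-20390921, minus strand): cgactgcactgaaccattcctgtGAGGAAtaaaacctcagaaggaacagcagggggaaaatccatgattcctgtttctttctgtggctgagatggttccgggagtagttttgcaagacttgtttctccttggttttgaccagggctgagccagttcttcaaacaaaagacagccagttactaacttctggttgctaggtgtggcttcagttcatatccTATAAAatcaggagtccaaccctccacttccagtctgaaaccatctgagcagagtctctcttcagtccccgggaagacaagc
Anxa2 (chr9:69453433-69453732, plus strand): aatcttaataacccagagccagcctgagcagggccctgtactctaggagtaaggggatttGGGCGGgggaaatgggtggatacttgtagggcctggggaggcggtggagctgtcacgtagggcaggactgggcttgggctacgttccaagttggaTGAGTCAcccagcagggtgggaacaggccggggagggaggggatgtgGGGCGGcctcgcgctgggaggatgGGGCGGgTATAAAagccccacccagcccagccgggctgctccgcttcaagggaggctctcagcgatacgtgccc
S100a11 (chr3:93520246-93520545, plus strand): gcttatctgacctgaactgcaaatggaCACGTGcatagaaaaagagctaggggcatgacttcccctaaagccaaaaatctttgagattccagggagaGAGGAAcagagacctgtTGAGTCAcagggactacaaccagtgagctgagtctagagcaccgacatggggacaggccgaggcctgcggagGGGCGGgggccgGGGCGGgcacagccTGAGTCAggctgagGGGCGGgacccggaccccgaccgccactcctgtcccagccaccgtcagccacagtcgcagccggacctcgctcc

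S100a4 and Anxa1 held a TATA box, its first base at -31 and -32 from the start, as did Anxa2 at -17, and S100a6 did not. Anxa2 and S100a11 held AP-1 motifs, at -95 in Anxa2 and at -136 and -38 in S100a11, and each had 3 GC boxes. S100a4, S100a6 and Anxa1 held no match to either. Among the genes not shown, S100a13 and Anxa5 held no match to any of the motifs. Anxa11, also not shown, held 3 GC boxes and an ETS core at -238 but no AP-1 motif. Lack of both motifs was thus not particular to the genes past the limit. The E-box lay at 14 in S100a6 and at -223 in S100a11, and the ETS core at 19 in S100a4, -227 in Anxa1 and -153 in S100a11, so neither was held by all 3 genes past the limit. The CpG count of the window was 2 in S100a4, 6 in S100a6 and 3 in Anxa1, against 13 in Anxa2 and 15 in S100a11. In the 3 other genes with a promoter in the table it was 14 in S100a13, 16 in Anxa5 and 25 in Anxa11, beside a median of 7 over 32851 promoters. The genes were chosen with their levels known and S100a10 has no promoter there, so the CpG counts are a description only. A TATA box was found in 13.6% of all these promoters, the AP-1 motif in 7.81%, the GC box in 35.7%, the E-box in 7.15% and the ETS core in 28.3%. No matches overlapped each other. A match is a run of letters and was not tested as a site.

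The S100 genes near each other in the genome did not all share a direction. In the deposited mm9 coordinates, S100a13 (chr3:90318357-90328503), S100a4 (chr3:90407692-90409967) and S100a6 (chr3:90416816-90418336) lie in the S100 cluster of chromosome 3, which spans 184.7 kb from S100a1 to S100a9. S100a4 and S100a6 lie 6.8 kb apart, and S100a8 starts 54.7 kb beyond S100a6. S100a8 had 105.3 FPKM in APL#2 and 309.0 FPKM in APL#1, and S100a9 148.1 FPKM in APL#2 and 378.8 FPKM in APL#1. The cluster therefore held a pair of genes higher in APL#2 beside a pair lower in APL#2, with no shift shared by all 4. S100a5, between S100a4 and S100a6, had 0.142 FPKM in APL#2, about 2 fragments, and was listed at 0 in APL#1. S100a7a, between S100a6 and S100a8, had 0.0301 FPKM in APL#2 and was listed at 0 in APL#1. On the other side of S100a4, S100a1 (2.91 FPKM in APL#2 and 3.53 FPKM in APL#1) lies next to S100a13, and S100a2, S100a3, S100a14 and S100a16 were listed at 0 in both libraries.

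**Figure D3:**
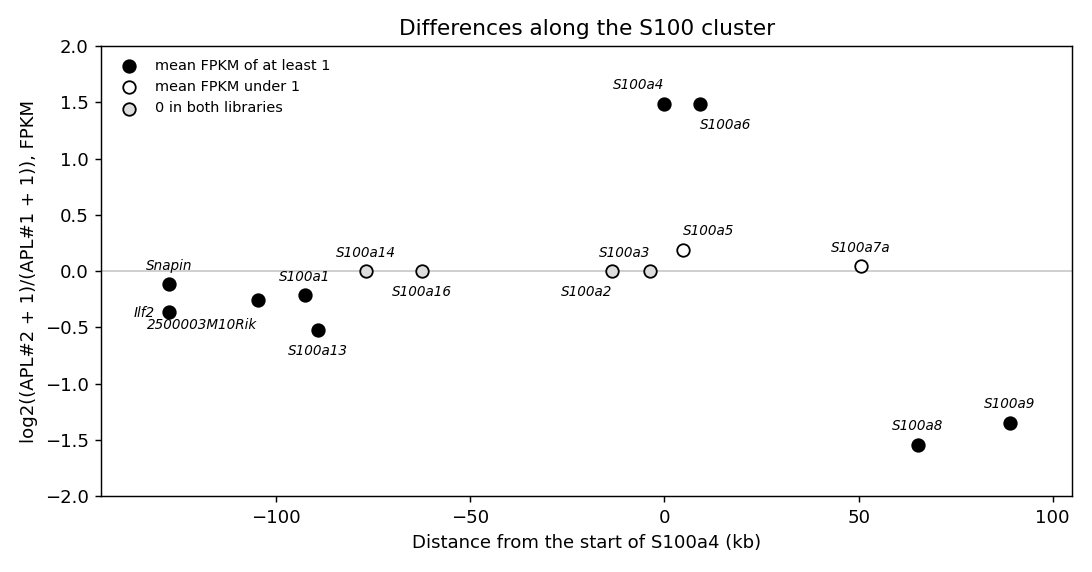
Difference between APL#2 and APL#1 on the log2(FPKM + 1) scale for genes of the chromosome 3 S100 cluster and its neighbours, by distance from the start of S100a4 in kb; filled points have a mean FPKM of at least 1, open points are lower and grey points are 0 in both libraries. S100a4 and S100a6 lie at 1.49 and 1.48, and S100a8 and S100a9 at -1.54 and -1.35.

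S100a11 (chr3:93324418-93330210) and S100a10 (chr3:93359039-93368567) form a second site on chromosome 3, 28.8 kb apart and 2824.8 kb beyond S100a9. They differed from each other: S100a10 stood at 0.135 FPKM per FPKM of S100a11 in APL#2 and at 0.0427 in APL#1. Beyond S100a10, the nearest measured genes Mrpl9, Psmb4 and Selenbp1 lie 878.7, 1319.7 and 1368.4 kb away. Their ratios were 0.883, 0.629 and 0.639. The 172 measured genes of chromosome 3 had a median ratio of 0.798. Of them, 3 were at least 2-fold higher in APL#2 and 8 at least 2-fold lower, beside 2.10% and 2.44% of all measured genes. S100a4 and S100a6, chosen with their levels known, are 2 of the 3 higher genes, and nothing is read from this.

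Anxa1 (chr19:20447924-20465161) lies on a chromosome whose genes were higher in APL#2 as a whole. The 134 measured genes of chromosome 19 had a median ratio of 1.63, with an interquartile range of 1.33 to 1.84. Divided by that median, the ratio of Anxa1 was 2.74. Among the 134 genes Anxa1 came second by plain ratio and first by the difference on the log2(FPKM + 1) scale. By that difference, 9 of the 134 were at least 2-fold higher in APL#2, Anxa1 among them. At least 2-fold lower were 0 of the 134, and the shares of all measured genes were 2.10% higher and 2.44% lower. The nearest measured genes on either side were higher in APL#2 too, but lie far off: Ostf1 (ratio 1.64) at 1741.6 kb and Gda (ratio 2.84) at 1000.6 kb. Over the 3 nearest on each side, up to 3986.0 kb away, the ratios ran from 0.660 to 3.15. The part of the chromosome in the difference of Anxa1 was not tested. For the annexins on other chromosomes the median ratios were 0.814 on chromosome 5 (Anxa3), 0.834 on chromosome 9 (Anxa2) and 0.798 on chromosomes 14 (Anxa11) and 3 (Anxa5), close to that of all genes.

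**Figure D4:**
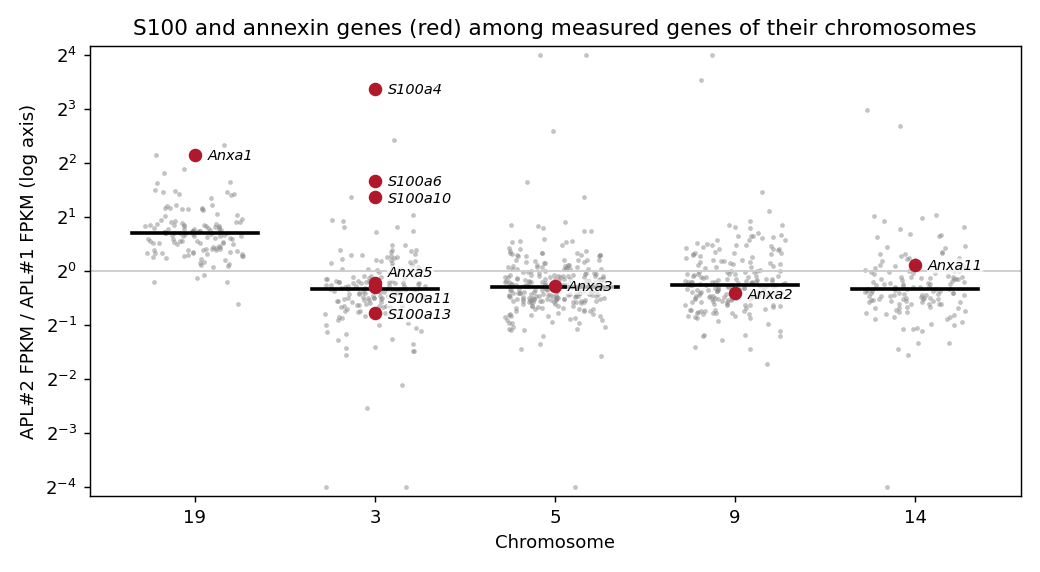
Ratio of APL#2 over APL#1 (log axis) of measured genes on the chromosomes that hold the S100 and annexin genes; grey points are genes, with ratios beyond 16 in either direction drawn at the edge, black lines are chromosome medians and red points are the genes described. Anxa1 sits above a raised chromosome 19, whereas S100a4, S100a6 and S100a10 sit far above the median of chromosome 3.

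The remaining genes of both families were mostly silent. Of 12 other S100 genes in the list, which also holds S100pbp, a gene for an S100-binding protein, 3 were measured: S100a1, S100a8 and S100a9. S100a8 and S100a9 were at least 2-fold lower in APL#2. Another 6 were listed at 0 in both libraries, namely S100g and S100z besides the 4 of the cluster. Of 7 other annexin genes, Anxa6 alone was measured, with 1.77 FPKM in APL#2 and 2.28 FPKM in APL#1. Anxa4 had 0.485 FPKM in APL#2 and 0.126 FPKM in APL#1, Anxa7 had 0.342 FPKM in APL#2 and 0.320 FPKM in APL#1, and Anxa8, Anxa10 and Anxa13 were listed at 0 in both.

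Of 31 listed partner and receptor genes, 28 were in the table and 11 were measured. By the difference on the log2(FPKM + 1) scale, 0 of these 11 were at least 2-fold higher and 0 at least 2-fold lower, beside 2.10% and 2.44% of all measured genes, shares at which 0 of 11 is no result about the list. Their median difference was -0.06. The gene nearest to the limit was Bsg, which encodes basigin, a receptor for S100a9, at 7.96 FPKM in APL#2 and 16.9 FPKM in APL#1; its plain ratio of 0.472 is past 2-fold. Cacybp, the calcyclin-binding protein gene, stood at 0.981 FPKM in APL#2 and 1.26 FPKM in APL#1. Pdcd6, whose product binds annexin A11, stood at 1.91 FPKM in APL#2 and 1.64 FPKM in APL#1. Sri, which encodes the EF-hand protein sorcin, stood at 2.05 FPKM in APL#2 and 2.66 FPKM in APL#1.

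Genes of plasminogen activation were low. Plaur, the urokinase receptor, stood at 1.44 FPKM in APL#2 and 0.851 FPKM in APL#1, and 5033414D02Rik, an older symbol of the plasminogen receptor gene Plgrkt, at 1.26 FPKM in APL#2 and 1.09 FPKM in APL#1. The activator gene Plat and the plasminogen gene Plg were listed at 0 in both, and Plau had 0.0227 FPKM in APL#2 and 0 in APL#1. Ahnak, a large protein held at the membrane by S100a10 and annexin A2, had 0.361 FPKM in APL#2 and 0.0538 FPKM in APL#1. The receptor gene Tlr4 was listed at 0 in both, and Ager stood at 0.333 FPKM in APL#2 and 0.360 FPKM in APL#1.

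Other EF-hand genes lay near the all-gene median as a list. Of 30 listed, 28 were in the table and 20 were measured, with a median difference of -0.24. Of the 20, 0 were at least 2-fold higher and 0 at least 2-fold lower, beside 2.10% and 2.44% of all measured genes. At these shares, 0 of 20 is no result about the list. Myl6, a myosin light chain, stood at 39.0 FPKM in APL#2 and 64.5 FPKM in APL#1, and the actin bundler gene Lcp1 at 29.3 FPKM in APL#2 and 37.9 FPKM in APL#1. The calmodulin gene Calm2 stood at 10.6 FPKM in APL#2 and 11.7 FPKM in APL#1, and Calm3 at 6.16 FPKM in APL#2 and 9.22 FPKM in APL#1. Nucb1, a calcium-binding Golgi protein gene, had the lowest log2(FPKM + 1) difference of the list (-0.98), with 10.5 FPKM in APL#2 and 21.6 FPKM in APL#1, a plain ratio of 0.483.

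Markers of other cells were checked because macrophages, monocytes and fibroblasts are rich in several of these genes. The 6 promyelocyte markers were all measured and went both ways. Mpo, at 157.3 FPKM in APL#2 and 661.8 FPKM in APL#1, and Elane, at 5.01 FPKM in APL#2 and 32.4 FPKM in APL#1, were at least 2-fold lower in APL#2. Ms4a3 stood at 15.9 FPKM in APL#2 and 7.85 FPKM in APL#1, a plain ratio of 2.03, and Ctsg at 8.99 FPKM in APL#2 and 7.89 FPKM in APL#1. The ratios of Kit and Prtn3 were 0.865 and 0.710. Of the stroma markers, Col1a2, Col3a1, Dcn and Pdgfra were listed at 0 in both libraries, and the list summed to 0.00720 FPKM in APL#2 and 0.0195 FPKM in APL#1. The 7 macrophage markers in the table were all under 1 FPKM and summed to 0.720 FPKM in APL#2 and 0.151 FPKM in APL#1, with Emr1, which encodes F4/80, at 0.537 FPKM in APL#2 and 0.0230 FPKM in APL#1. The 7 monocyte markers went both ways. Their sum was 143.3 FPKM in APL#2 and 249.4 FPKM in APL#1, carried by Ly6c2 and Lyz2, and the 3 that were measured (these and F13a1) were lower in APL#2, with F13a1 at least 2-fold lower (0.726 FPKM in APL#2 and 4.75 FPKM in APL#1). The other 4 were under 1 FPKM and higher in APL#2. Of these, Cd14 stood at 0.425 FPKM in APL#2 and 0.0541 FPKM in APL#1, Ccr2 at 0.253 FPKM in APL#2 and 0.160 FPKM in APL#1, Csf1r at 0.101 FPKM in APL#2 and 0.0667 FPKM in APL#1, and Fn1 at 0.0339 FPKM in APL#2 and 0.0324 FPKM in APL#1. T cell, NK cell, B cell, erythroid and dendritic cell markers stood at 0.158 FPKM or less in both. Of the basophil and mast cell markers, Mcpt8 stood at 8.04 FPKM in APL#2 and 1.02 FPKM in APL#1, and Cpa3 at 7.09 FPKM in APL#2 and 41.3 FPKM in APL#1, with Fcer1a, Prss34 and Cma1 at 0 in both. Mature neutrophil markers summed to 1.15 FPKM in APL#2 and 2.83 FPKM in APL#1. Platelet markers summed to 4.01 FPKM in APL#2 and 2.36 FPKM in APL#1, nearly all Itga2b, and endothelial markers to 1.62 FPKM in APL#2 and 3.62 FPKM in APL#1, nearly all Pecam1. The part of macrophage, monocyte and basophil RNA in the differences of S100a4, S100a6, S100a10 and Anxa1 was not tested.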

How the data were processed

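RNA of CD45.2+ spleen cells was sequenced in 1 library of APL#2 and 1 of APL#1. TopHat2 (version 2.0.10), Cuffdiff, Cufflinks and the mm9 build are named, without their roles, per the submitters' processing notes. Read layout, strand, annotation, filters and scaling were not given in the sources used here. In the gene table that the authors deposited, each library has 1 value column. These values were taken as FPKM, as the columns deposited by the authors follow Cuffdiff's format although no header states a unit. Per the file headers, each gene also has the authors' test statistic (a score), p-value and q-value. Start coordinates were counted from 0 in the deposited table (end minus start equalled the RefSeq gene length in 7152 genes), so 1 was added.

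Members were matched by symbol. Differences used a pseudocount of 1 and measured genes a mean FPKM of at least 1. The members, lists and rules were chosen with earlier results of these data known; all 10 members are named, with listed genes by highest level or past 2-fold and the 3 nearest measured genes on each side. Fragments were estimated from genes with 1 transcript of at least 400 bases: the length deduction, in steps of 10 bases, at which most of the lowest values fell within 2% of one another was 200 bases, with 110 genes in APL#2 and 87 in APL#1 at 1 fragment. Values times kb were searched from 0.012 to 0.035, and limits of 0.001 and 1 gave the same totals. In 3 sets simulated as whole fragments over the 4492 single-transcript genes, the deduction was recovered in 3 and the totals within 2%; whether the deposited values are whole fragments was not simulated. Lengths came from the RefSeq-linked GENCODE vM21 transcript. About 1830000 fragments in APL#2 and 1940000 in APL#1 lay in 14589 genes with such a length. The standard error implied by the authors' test is the log2 ratio divided by their statistic. Alternatives were pseudocounts of 0.1 and 0.5, 3 scalings and 2 filters. Python 3.11.15, pandas 2.3.3, NumPy 2.4.6, SciPy 1.17.1 and matplotlib 3.10.9 were used.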

Additional observations from a re-analysis of the deposited data

How the results depend on the processing

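The count of genes at least 2-fold higher in APL#2 was 3 with a pseudocount of 1 and between 2 and 4 under the 7 alternatives; S100a10 joined with pseudocounts of 0.1 and 0.5 and with 2 of the scalings, and S100a4 dropped out with a mean FPKM of at least 5, which left 5 genes. The count at least 2-fold lower was 0 under each alternative. With the main setting, 2.10% of all measured genes were at least 2-fold higher and 2.44% at least 2-fold lower. These shares are not given for the alternatives, which can change them too. The genes were also chosen with their values known, so nothing is read from how steady the counts are. The median difference over the genes was -0.03, 0.16 with APL#2 divided by the median ratio, 0.14 with equal upper quartiles and -0.23 with a mean FPKM of at least 5. With no replicates, a shift of at least 0.05 was set as the limit for naming a median here. Both scalings shift all genes, whose own median moved from -0.17 to 0.00 and -0.02. Of 50 single-gene values under the pseudocounts and scalings, 2 changed sign, both for Anxa5 (-0.20 to 0.04). S100a4 ranged from 1.48 to 2.93, with the highest at a pseudocount of 0.1. S100a6 ranged from 1.47 to 1.73, S100a10 from 0.92 to 1.31 and Anxa1 from 1.95 to 2.21. No paired analysis was possible because each leukaemia has 1 library. Depth limits S100a4 most, with about 4 fragments in APL#1.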
